A study of Mus musculus with 20 samples.

Results

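The liver transcripts described here are those of 9 genes known as markers of bile duct and gut epithelium: *Tff3*, *Krt23*, *Sox9*, *Spp1*, *Epcam*, *Krt7*, *Krt19*, *Krt8* and *Krt18*. They were picked by symbol from the 54532 genes of the count table, with their levels in these same mice already known. Their own differences between groups are therefore given as a description, without p-values. Liver RNA came from 20 male C57BL/6 mice, 5 per group and 1 library per mouse, all made obese by 12 weeks of high-fat diet (HFD) and then operated on. Roux-en-Y gastric bypass (RYGB), which makes a small stomach pouch and joins it to the jejunum, was compared with sham surgery, and each was followed by 8 weeks on chow or on HFD. The groups are called Sham HFD and RYGB HFD, and Sham Chow and RYGB Chow. The mice that ate chow after surgery had thus been obese before it, and no group was lean throughout. The paper reports that Sham HFD mice were heavier than every other group, and it counts Sham Chow, RYGB Chow and RYGB HFD as lean. In contrasts with Sham HFD, body weight therefore cannot be told apart from diet or surgery. Whole liver was sequenced, so fewer cells of a type and less RNA per cell cannot be told apart.

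Trefoil factors are small secreted peptides that goblet cells release together with mucins, and *Tff3* is the form typical of the intestine. Keratins assemble in pairs of a type I and a type II chain into the intermediate filaments of epithelial cells. Hepatocytes carry *Krt8* and *Krt18* as their keratin pair, while the cholangiocytes that line bile ducts add *Krt7* and *Krt19*. *Sox9* and *Spp1* are used to mark duct cells and the ductular reaction, in which duct-like cells multiply in an injured liver.

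Depth ran from 14604854 to 22537498 counts per mouse, and mitochondrial genes held 4.02% to 7.34% of them. RYGB Chow replicate 3 stood apart from the rest of its group. Its level of the hepcidin gene *Hamp* was 447 CPM (counts scaled to library size) against 1.08 to 10.8 CPM in the other 4 mice, its mitochondrial share was the lowest of all libraries, and it held 71 counts of pancreatic acinar genes other than *Cela1* where the other 19 libraries held 0 to 6. For the 6 tested genes, fold changes that include it are given below with and without it.

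For 6 of the 9 genes the RefSeq promoter table of GRCm38.p6 holds a window of 250 bases before to 50 bases after the transcription start. The windows of *Krt8* and *Krt18* are shown because these partners, both on chromosome 15, parted in level in Sham HFD, and those of *Krt23* and *Spp1* because these genes were higher in Sham HFD. Capitals mark matches, on either strand, to 6 short motifs: the TATA box TATAAA, the CCAAT box, the AP-1 site TGANTCA, the TEAD site CATTCC, the nuclear receptor half-site AGGTCA and the GC box GGGCGG.
Krt8, chr15:102004293-102004592, minus strand: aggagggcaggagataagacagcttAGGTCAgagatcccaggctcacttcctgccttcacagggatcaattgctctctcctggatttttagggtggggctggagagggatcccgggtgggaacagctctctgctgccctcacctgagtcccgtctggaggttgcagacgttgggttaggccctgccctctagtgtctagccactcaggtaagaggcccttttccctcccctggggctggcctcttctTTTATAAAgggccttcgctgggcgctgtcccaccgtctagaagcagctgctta
Krt18, chr15:102027966-102028265, plus strand: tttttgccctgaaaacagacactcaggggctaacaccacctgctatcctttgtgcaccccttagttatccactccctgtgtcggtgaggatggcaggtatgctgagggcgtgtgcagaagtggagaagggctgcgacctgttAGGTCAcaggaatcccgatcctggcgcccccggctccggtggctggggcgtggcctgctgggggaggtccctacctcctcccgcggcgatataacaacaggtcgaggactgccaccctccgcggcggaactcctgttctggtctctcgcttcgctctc
Krt23, chr11:99493071-99493370, minus strand: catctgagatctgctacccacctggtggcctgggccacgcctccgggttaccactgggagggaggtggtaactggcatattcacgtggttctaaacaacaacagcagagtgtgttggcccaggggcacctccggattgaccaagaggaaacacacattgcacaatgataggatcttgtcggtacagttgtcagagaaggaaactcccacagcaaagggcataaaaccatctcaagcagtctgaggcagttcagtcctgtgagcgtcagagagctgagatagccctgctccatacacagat
Spp1, chr5:104434861-104435160, plus strand: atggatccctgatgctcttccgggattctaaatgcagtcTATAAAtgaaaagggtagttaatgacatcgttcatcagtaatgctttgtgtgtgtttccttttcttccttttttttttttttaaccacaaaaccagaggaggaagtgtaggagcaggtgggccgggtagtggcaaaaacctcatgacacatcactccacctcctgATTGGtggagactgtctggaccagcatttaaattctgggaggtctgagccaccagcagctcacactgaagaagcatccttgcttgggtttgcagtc
*Krt8* and *Krt18* each held AGGTCA once, which 16.3% of all 32851 windows in the table also held. TATAAA stood in the windows of *Krt8*, where it overlapped its own reverse complement, and of *Spp1*, and 13.6% of all windows held it. *Spp1* also held the CCAAT box on the reverse strand, present in 37.4% of windows. None of the 6 motifs was found in the *Krt23* window. A match is a run of letters and not a measured binding site.

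The 9 genes differed widely in level. Per kilobase of exon, the mean over the 20 mice was 111 ± 24.3 CPM (SD) for *Krt8* and 98.2 ± 16.8 CPM for *Krt18*. *Spp1*, which encodes the secreted phosphoprotein osteopontin, followed at 17.005 ± 5.17 CPM per kilobase, *Tff3* at 4.35 ± 6.21, *Krt23* at 3.16 ± 3.06 and *Sox9* at 1.17 ± 0.482. *Epcam*, an adhesion molecule of the cholangiocyte surface, stood at 0.571 ± 0.179 CPM per kilobase, *Krt19* at 0.308 ± 0.159 and *Krt7* at 0.0706 ± 0.0503. The keratin pair of hepatocytes stood at the top of this order and the keratins that mark cholangiocytes at its end.

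Genes were tested when their level reached 2 CPM in at least 3 of the 20 mice, and 6 of the 9 did so. *Epcam* reached 2 CPM in 1 mouse and *Krt7* and *Krt19* in 0, so these 3 were left to the description. *Tff3* passed the filter only through RYGB HFD, where all 5 mice reached 2 CPM while 0 mice of the other groups did. The filter used plain library size, by which RYGB Chow replicate 2, at 2.101 CPM with TMM scaling, stayed under 2 CPM. Since a gene that passes in this way had to differ, the counts of called genes below carry no weight as support. Adjusted p-values under 0.05 from edgeR's quasi-likelihood test were counted as calls, and log2 fold changes are of the second group over the first.

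**Figure D1:**
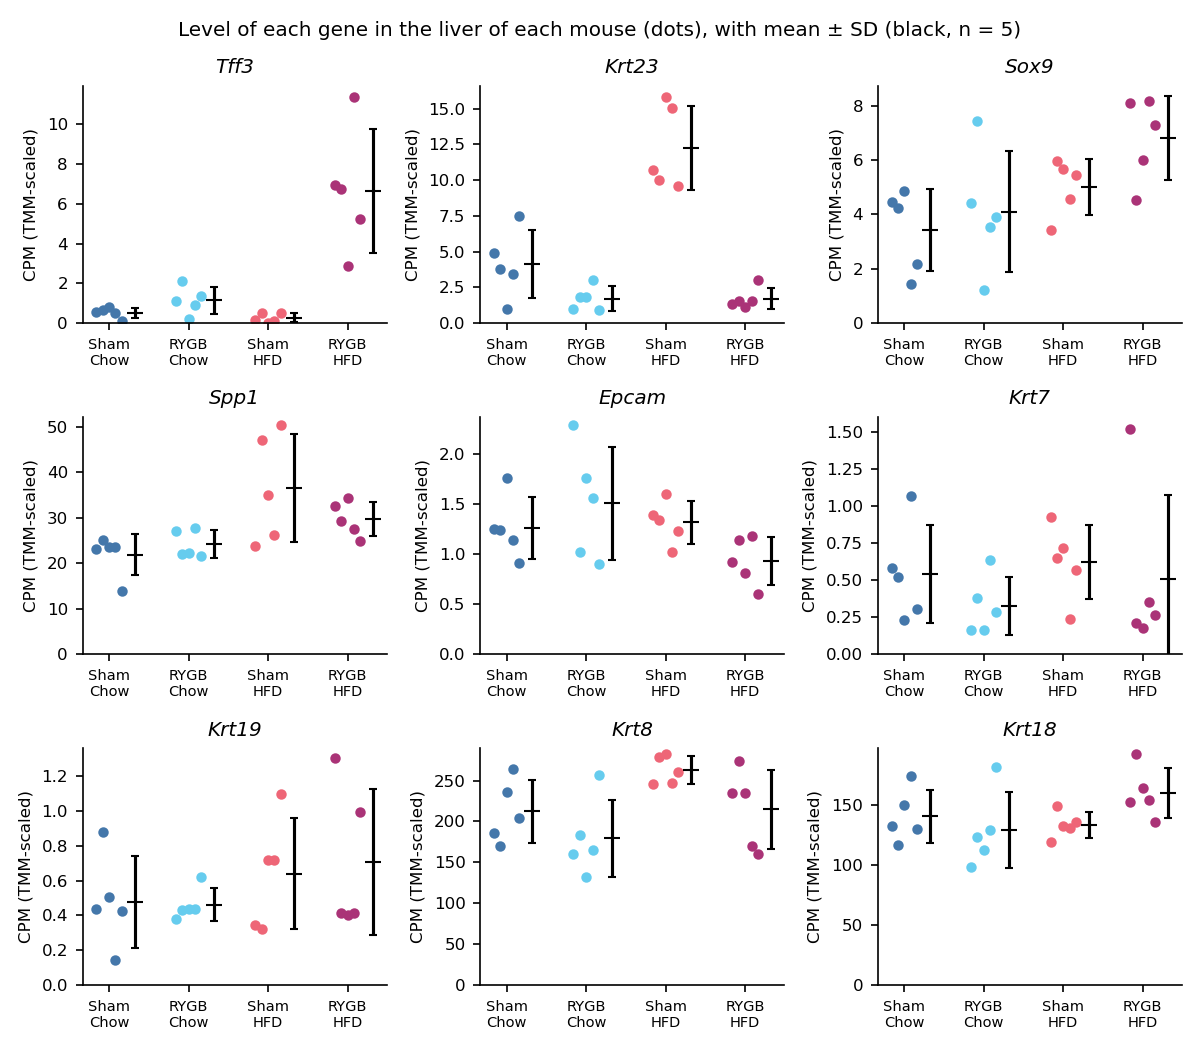
Level of each of the 9 genes in each mouse in CPM (TMM-scaled, linear axis from 0, own scale in each panel), with dots for the 5 mice of a group and the black mark and bar for mean ± SD, cut at 0. *Tff3* lies at 2.88 to 11.4 CPM in RYGB HFD and at most at 2.101 CPM elsewhere, and *Krt23* lies at 9.60 to 15.8 CPM in Sham HFD and at most at 7.52 CPM elsewhere.

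*Tff3* (ENSMUSG00000024029, chromosome 17 from 31125306 to 31129646 on GRCm38, minus strand) was high in RYGB HFD and low in the other 3 groups. The 5 RYGB HFD mice stood at 6.96, 6.77, 2.88, 11.4 and 5.25 CPM, from 128, 130, 50, 192 and 79 counts. In RYGB Chow the levels were 1.09, 2.101, 0.220, 0.929 and 1.36 CPM. In Sham Chow they were 0.531, 0.673, 0.786, 0.4998 and 0.121 CPM. Every RYGB HFD mouse lay above all 15 other mice. Sham HFD stood at 0.174, 0.509, 0, 0.120 and 0.526 CPM, where the mouse without a count can have held up to 0.127 CPM, the level of 3 counts. The lowest library of RYGB Chow, at 4 counts, was replicate 3, the mouse that stood apart.

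The group mean of *Tff3* was 6.64 ± 3.10 CPM (SD, n = 5) in RYGB HFD, 1.14 ± 0.683 in RYGB Chow, 0.522 ± 0.252 in Sham Chow and 0.266 ± 0.238 in Sham HFD. Between neighbours in this order, the ranges of Sham HFD, Sham Chow and RYGB Chow overlapped, and only RYGB HFD was apart from the next. The log2 fold change was 4.58 (standard error, SE, 0.57) in Sham HFD vs. RYGB HFD, or 23.9-fold. In RYGB Chow vs. RYGB HFD it was 2.54 (SE 0.49), or 5.81-fold, and 2.27 (SE 0.47) without RYGB Chow replicate 3. Both contrasts share the RYGB HFD mice, so they do not stand for separate evidence. In Sham Chow vs. RYGB Chow it was 1.08 (SE 0.56), with 4 of 5 RYGB Chow mice above all Sham Chow mice, and without RYGB Chow replicate 3 it was 1.35 (SE 0.53). The sign was opposite in Sham Chow vs. Sham HFD, at -0.95 (SE 0.66). The diet difference was thus larger after RYGB than after sham surgery by 3.49 on the log2 scale (SE 0.82), and by 3.22 (SE 0.76) without RYGB Chow replicate 3.

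The partners of *Tff3* in gut mucus stayed near the limit of counting. *Tff1* and *Tff2*, the other trefoil genes, had at most 8 and 5 counts in any mouse. *Muc2*, the main secreted mucin of the intestine, had at most 3 counts, and *Agr2*, *Clca1* and *Atoh1*, genes of goblet cells, had 0 in all 20 mice. None of the 17 trefoil, mucin and goblet cell genes on the list passed the filter. Their summed level ran from 0.465 to 1.06 CPM in RYGB HFD and from 0.121 to 1.51 CPM in the other mice. Of 25 genes of absorptive and endocrine gut cells, only *Fabp2* and *Lgals4* passed. The summed counts of the remaining 23 ran from 5 to 30 in RYGB HFD and from 3 to 36 in the other mice, and the caudal homeobox genes *Cdx1* and *Cdx2*, which define intestinal epithelium, had 0 counts throughout. In RYGB HFD, where *Tff3* was high, both sums thus lay within the range of the other groups.

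**Figure D2:**
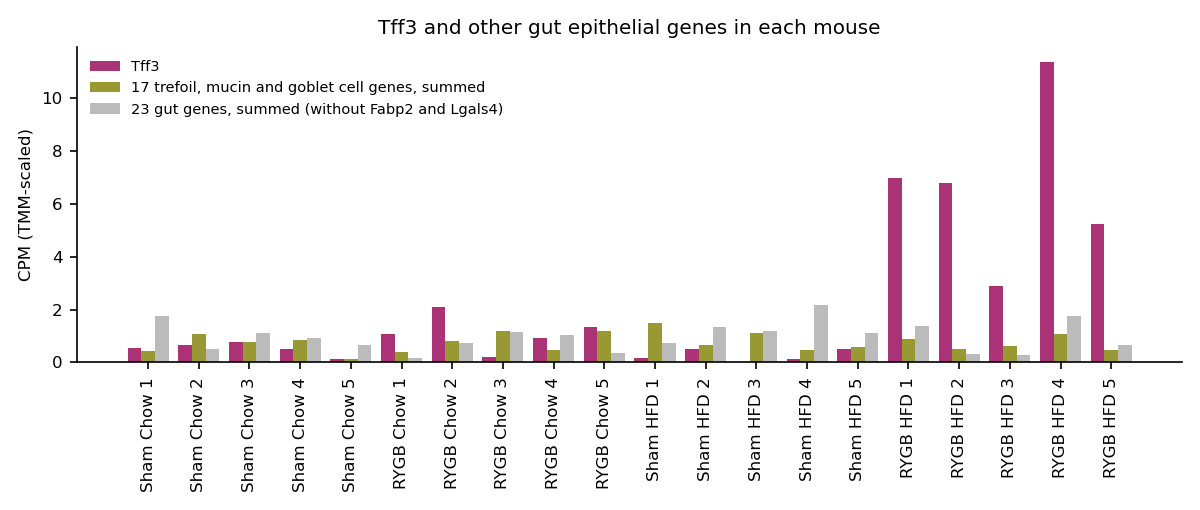
*Tff3* in each mouse (CPM, linear axis from 0) beside the summed level of 17 trefoil, mucin and goblet cell genes and of 23 further gut genes, 1 group of 3 bars per library. The *Tff3* bars of the 5 RYGB HFD mice reach 2.88 to 11.4 CPM while the goblet cell sum stays at or below 1.51 CPM in all 20 mice.

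*Fabp2*, the intestinal fatty acid binding protein, differed from *Tff3* in direction in both contrasts with Sham HFD. In RYGB Chow vs. RYGB HFD both had a positive log2 fold change, for *Fabp2* 0.59 (SE 0.21), which was not called. It was 163.6 ± 6.03 CPM in Sham HFD and 97.3 ± 24.9 CPM in RYGB HFD, and 69.0 ± 27.2 and 64.6 ± 13.4 CPM in Sham Chow and RYGB Chow (n = 5 each). With HFD in sham mice it rose by 1.25 on the log2 scale (SE 0.21, edgeR adjusted p = 4.09e-04). From Sham HFD to RYGB HFD its log2 fold change was -0.75 (SE 0.21, edgeR adjusted p = 0.0184), a call lost without RYGB HFD replicate 5, where the adjusted p was 0.0533. *Lgals4*, which encodes a galectin of gut epithelium, fell by 0.50 on the log2 scale with HFD in sham mice (SE 0.13, edgeR adjusted p = 0.0106).

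The tested genes whose levels followed *Tff3* most closely over the 20 mice were *Entpd8* (Spearman's rho 0.87), *Hs3st3b1* (0.85), *Ahsg* (0.84), *Scap* (0.84) and *Ptcd1* (0.84). These values describe 20 mice of 4 groups, so the differences between groups are part of them. *Ahsg*, the gene of the plasma protein fetuin-A, was 3895 CPM in Sham HFD and 6702 CPM in RYGB HFD. The other members lay well below these values, with *Sox9* at 0.55 and *Krt23* at -0.75.

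*Krt23* (ENSMUSG00000006777, chromosome 11 from 99477974 to 99493137, minus strand), a type I keratin, had its highest levels in Sham HFD. The 5 mice there stood at 10.7, 9.99, 15.8, 15.0 and 9.60 CPM. Sham Chow followed at 4.88, 3.78, 0.971, 3.43 and 7.52 CPM. RYGB Chow stood at 0.980, 1.83, 1.81, 3.03 and 0.906 CPM. All 5 Sham HFD mice lay above the 15 others, while Sham Chow overlapped both RYGB groups. RYGB HFD was at 1.31, 1.51, 1.15, 1.54 and 2.99 CPM, within the range of RYGB Chow.

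The mean of *Krt23* was 12.2 ± 2.96 CPM (SD, n = 5) in Sham HFD and 1.70 ± 0.739 CPM in RYGB HFD, which gave a log2 difference of -2.86 (SE 0.40), or 7.25-fold lower. It was 4.11 ± 2.38 CPM in Sham Chow and 1.71 ± 0.859 CPM in RYGB Chow. The log2 fold change was 1.58 (SE 0.37) in Sham Chow vs. Sham HFD and -0.04 (SE 0.42) in RYGB Chow vs. RYGB HFD, or -0.02 (SE 0.46) without RYGB Chow replicate 3. Its difference by surgery had the same sign on both diets, at -1.24 (SE 0.40) on chow and -1.26 (SE 0.44) there without that replicate, but 1 of 5 RYGB Chow mice lay below all Sham Chow mice there. The surgery by diet term was -1.61 (SE 0.56), or -1.61 (SE 0.59) without it, not called in edgeR and called in DESeq2.

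*Krt8*, the type II chain of the hepatocyte pair (ENSMUSG00000049382, chromosome 15 from 101996698 to 102004482, minus strand), was 263 ± 17.2 CPM (SD, n = 5) in Sham HFD, 215 ± 48.0 in RYGB HFD, 212 ± 38.2 in Sham Chow and 179 ± 47.4 in RYGB Chow. The Sham HFD mice stood close together at 246, 279, 282, 247 and 260 CPM. RYGB HFD stood at 234, 274, 234, 170 and 160 CPM, and RYGB Chow at 160, 183, 132, 165 and 257 CPM. Sham Chow stood at 186, 170, 236, 265 and 204 CPM. All neighbouring ranges overlapped, and the lowest mouse of all was RYGB Chow replicate 3. The log2 fold change was 0.31 (SE 0.16) in Sham Chow vs. Sham HFD and -0.29 (SE 0.16) in Sham HFD vs. RYGB HFD. On chow, RYGB against sham, it was -0.24 (SE 0.16), and -0.15 (SE 0.16) without that library.

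*Krt18*, its type I partner (ENSMUSG00000023043, chromosome 15 from 102028180 to 102032027, plus strand), was highest in RYGB HFD, at 160.4 ± 20.9 CPM (SD, n = 5). The means were 141 ± 22.2 CPM in Sham Chow, 134 ± 10.8 in Sham HFD and 129 ± 31.7 in RYGB Chow. RYGB HFD stood at 153, 193, 164, 155 and 136 CPM, and Sham HFD at 119, 150, 133, 131 and 136 CPM. Sham Chow stood at 133, 117, 151, 175 and 130 CPM, and RYGB Chow at 98.7, 124, 113, 129 and 182 CPM. Again no neighbouring groups were apart. The log2 fold change was 0.26 (SE 0.14) in Sham HFD vs. RYGB HFD and 0.31 (SE 0.14) in RYGB Chow vs. RYGB HFD, or 0.26 (SE 0.14) without RYGB Chow replicate 3. In Sham Chow vs. Sham HFD it was -0.08 (SE 0.14), with a change of sign to 0.05 when only library size was used for scaling.

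Within each library, *Krt8* counts were divided by *Krt18* counts, which cancels depth and scaling. This ratio was chosen after the values of both genes had been seen and is given without a test. It was 2.06, 1.87, 2.12, 1.88 and 1.92 in the 5 Sham HFD mice. The other 15 mice ranged from 1.10 to 1.62, so Sham HFD did not overlap any other group. The means were 1.97 ± 0.117 (SD, n = 5) in Sham HFD, 1.501 ± 0.0736 in Sham Chow, 1.39 ± 0.176 in RYGB Chow and 1.33 ± 0.182 in RYGB HFD, and the last 3 groups overlapped. The ratio was thus higher in Sham HFD than in the other groups, in counts and not in protein. It is not corrected for exon length, which is 1958 bases for *Krt8* and 1437 for *Krt18*. Per kilobase of exon, mean *Krt8* was above mean *Krt18* in Sham HFD (134.3 against 93.1 CPM) and Sham Chow (108.4 against 98.2 CPM). In RYGB HFD mean *Krt8* was below mean *Krt18* (109.7 against 111.6 CPM), and in RYGB Chow the means were close. Mesothelial cells, which cover the liver surface, also carry these keratins. The summed level of 4 mesothelial genes (*Msln*, *Upk3b*, *Wt1* and *Lrrn4*) was 3.28 to 10.6 CPM in Sham HFD and 0.416 to 4.502 CPM in the other mice, and its part in the ratio was not tested. The pseudogene *Krt8-ps* held 2 to 18 counts per mouse, against 2394 to 6684 for *Krt8*, and the opposite-strand *Gm36026*, which shares 101 exonic bases with *Krt8*, at most 5.

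**Figure D3:**
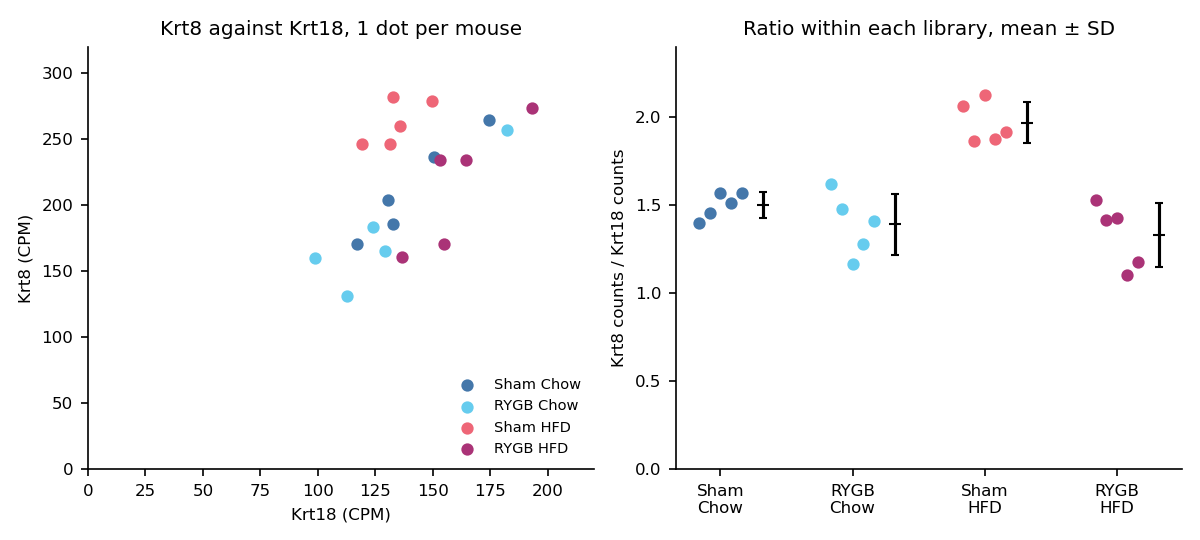
*Krt8* against *Krt18* in CPM (left, 1 dot per mouse, both axes from 0) and the ratio of their counts within each library by group (right, with mean ± SD, n = 5). The 5 Sham HFD mice lie at ratios of 1.87 to 2.12, above the other 15 mice at 1.10 to 1.62.

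The keratins of cholangiocytes had too few counts to set their differences between groups against those of the hepatocyte pair. *Krt19* (ENSMUSG00000020911, chromosome 11 from 100140810 to 100148665, minus strand) had 2 to 25 counts per mouse, with group means from 0.463 CPM in RYGB Chow to 0.707 CPM in RYGB HFD. *Krt7* (ENSMUSG00000023039, chromosome 15 from 101411043 to 101430313, plus strand) had 3 to 28 counts, with means from 0.325 CPM in RYGB Chow to 0.621 CPM in Sham HFD. At such counts the groups overlapped in every contrast. In a fit without the filter, the largest log2 fold change of *Krt7* was -0.68 (SE 0.60), in Sham Chow vs. RYGB Chow, and that of *Krt19* 0.59 (SE 0.49), in RYGB Chow vs. RYGB HFD. Of the 45 other keratin genes in the annotation, 1 passed the filter, *Krt10*, a keratin of skin, and 35 had 0 counts in all mice.

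*Epcam* (ENSMUSG00000045394, chromosome 17 from 87635979 to 87651129, plus strand) had 9 to 42 counts per mouse. The group mean was 1.51 CPM in RYGB Chow, 1.32 in Sham HFD, 1.26 in Sham Chow and 0.932 in RYGB HFD, and neighbours overlapped. The highest mouse was RYGB Chow replicate 1 at 2.29 CPM, and RYGB Chow replicate 3 stood at 1.76 CPM. Without the filter, the log2 fold change was -0.70 (SE 0.32) in RYGB Chow vs. RYGB HFD and -0.50 (SE 0.32) in Sham HFD vs. RYGB HFD.

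*Sox9*, a transcription factor of duct cells (ENSMUSG00000000567, chromosome 11 from 112782224 to 112787760, plus strand), had its highest mean in RYGB HFD, followed by Sham HFD, RYGB Chow and Sham Chow, with overlap between all neighbours. RYGB HFD stood at 8.11, 4.53, 6.00, 8.16 and 7.31 CPM, a mean of 6.82 ± 1.55 (SD, n = 5). Sham HFD stood at 3.42, 5.96, 5.66, 4.55 and 5.44 CPM, a mean of 5.01 ± 1.03. The chow groups were lower and more scattered. RYGB Chow stood at 4.41, 7.43, 1.21, 3.52 and 3.91 CPM, with replicate 3 the lowest mouse of all, and Sham Chow at 4.44, 4.24, 4.86, 1.43 and 2.18 CPM. The log2 fold change was 0.73 (SE 0.34) in RYGB Chow vs. RYGB HFD and 0.50 (SE 0.30) without replicate 3. It was 0.53 (SE 0.34) in Sham Chow vs. Sham HFD and 0.44 (SE 0.34) in Sham HFD vs. RYGB HFD. None of these was called.

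*Spp1* (ENSMUSG00000029304, chromosome 5 from 104435118 to 104441050, plus strand) was higher on HFD than on chow in sham mice. Sham HFD stood at 23.8, 47.1, 34.9, 26.2 and 50.3 CPM, the widest spread of the 4 groups. Sham Chow stood at 23.1, 25.0, 23.5, 23.6 and 13.9 CPM. The lowest Sham HFD mouse lay within the range of Sham Chow and the other 4 above it. RYGB Chow stood at 27.1, 21.9, 22.3, 27.8 and 21.6 CPM, and RYGB HFD at 32.5, 29.2, 34.2, 27.4 and 24.9 CPM. The means were 36.5 ± 11.9 CPM (SD, n = 5) in Sham HFD, 29.6 ± 3.79 in RYGB HFD, 24.2 ± 3.04 in RYGB Chow and 21.8 ± 4.502 in Sham Chow. The log2 fold change was 0.74 (SE 0.18) in Sham Chow vs. Sham HFD, or 1.67-fold, and 0.29 (SE 0.18) in RYGB Chow vs. RYGB HFD, or 0.26 (SE 0.20) without RYGB Chow replicate 3. Macrophages of fatty liver also make osteopontin, and *Gpnmb*, *Cd63*, *Trem2*, *Itgax* and *Mmp12* of the 8 genes on the lipid-associated macrophage list were called higher in Sham HFD than in Sham Chow while *Cd9* and *Fabp5* were called lower. The *Trem2* call was lost without the filter and in 10 of the 20 refits that left out 1 mouse, the *Itgax* call in 4 of them, and the *Cd9* call with only library size for scaling. The summed level of that list was 49.6 to 75.7 CPM in Sham HFD and 46.2 to 86.9 CPM in Sham Chow. In Sham Chow *Fabp5*, *Cd9* and *Lpl* held most of it, with means of 27.6, 17.7 and 14.3 CPM. The sum thus does not follow the 5 genes called higher. Of 6 Kupffer cell genes, 3 were called higher in that contrast and 0 lower, against 21.6% of all genes. Among them *Clec4f* lost its call in 6 and *Cd5l* in 4 of the 20 refits. The part of these cells in the level of *Spp1* was not tested.

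Over the 4 contrasts, calls among the 6 tested genes fell on *Tff3*, *Krt23* and *Spp1*. In Sham Chow vs. RYGB Chow 0 of the 6 were called, where 0.057% of all 12289 tested genes were. In Sham HFD vs. RYGB HFD 2 were called, *Tff3* higher and *Krt23* lower, against 16.4% of all genes. In Sham Chow vs. Sham HFD 2 were called, *Krt23* and *Spp1*, both higher, against 21.6% of all genes. In RYGB Chow vs. RYGB HFD *Tff3* alone was called, against 3.65%, and in the surgery by diet test *Tff3* alone, against 5.06%. The ranges of the 2 groups were fully apart for *Tff3* and *Krt23* in Sham HFD vs. RYGB HFD (14.7% of all genes), for *Krt23* in Sham Chow vs. Sham HFD (16.5%) and for *Tff3* in RYGB Chow vs. RYGB HFD (5.05%). They overlapped for all 6 in Sham Chow vs. RYGB Chow, where 1.33% of all genes were apart. Since the genes were chosen with these contrasts known, nothing is read from these shares. Without RYGB Chow replicate 3 the same genes were called in each contrast.

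**Figure D4:**
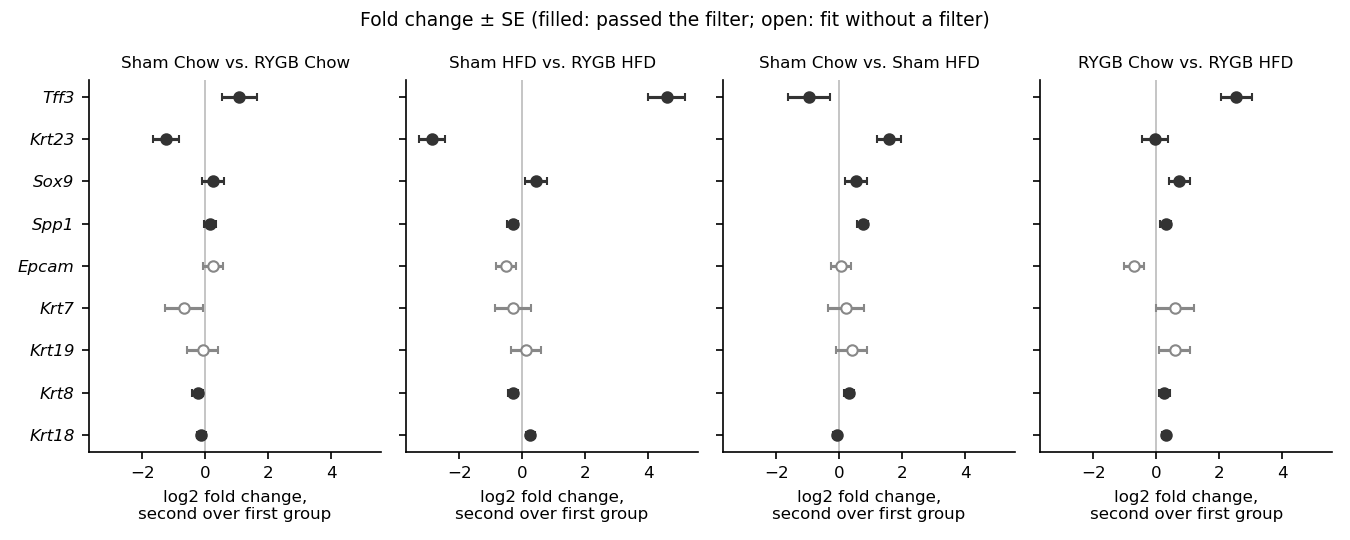
Log2 fold change ± standard error of the 9 genes in the 4 contrasts, second group over first, with filled marks for genes that passed the filter and open marks for values from the fit without a filter. *Tff3* reaches 4.58 and *Krt23* -2.86 in Sham HFD vs. RYGB HFD, and the remaining genes lie between -0.70 and 0.74 in all 4 contrasts.

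The likeness between members over the 20 mice was low apart from a few pairs. The value farthest from 0 was negative, a Spearman's rho of -0.75 for *Tff3* and *Krt23*, and *Epcam* and *Krt18* had -0.51. *Krt8* and *Krt18* had 0.57, *Tff3* and *Sox9* 0.55, *Krt23* and *Krt7* 0.52 and *Sox9* and *Spp1* 0.49, while *Krt7* and *Krt19* had 0.04. None of the genes most like the other tested members was on the list of cholangiocyte genes. Only the closest few were read per member, and just 7 of the 12289 tested genes were on that list. The absence of list genes therefore cannot tell whether the members follow duct cells. The closest genes were *Cdadc1* (0.83), *Pithd1* (0.81) and *Snap23* (0.81) for *Krt23*, and *Slc3a1* (0.85), *Wdr81* (0.82) and *Shank2* (0.81) for *Sox9*. For *Spp1* they were *Zfp41* (0.88), *Cldn2* (0.86) and *Fads2* (0.83), of which *Cldn2* encodes a claudin of tight junctions. For *Krt8* they were *Nmnat3* (0.91), *Rnf181* (0.88) and *Bphl* (0.86), and for *Krt18* *Mov10* (0.88), *4933439C10Rik* (0.86) and *Gcgr* (0.85).

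Other genes of bile duct, ductular reaction and junctions were read from lists chosen by function, with earlier results of these data known. The adjusted p-values of list genes, here and above, are thus no independent support. Over all lists, 92 of 219 genes passed the filter. Of these, 0 were called in Sham Chow vs. RYGB Chow (1 with DESeq2), where 0.057% of all tested genes were. In Sham HFD vs. RYGB HFD 25 were called (14 higher, 11 lower), or 27.2% against 16.4% of all genes. In Sham Chow vs. Sham HFD 36 were called (28 higher, 8 lower), or 39.1% against 21.6%. In RYGB Chow vs. RYGB HFD 5 were called (3 higher, 2 lower), or 5.43% against 3.65%. The same shares of all genes stand beside the counts of each single list, and nothing is read from them. The median log2 fold change of the 92 was -0.01 in Sham HFD vs. RYGB HFD and 0.26 in Sham Chow vs. Sham HFD, where the medians of all tested genes were 0.0095 and -0.0047. With only library size for scaling, which moved the median of all genes in Sham Chow vs. Sham HFD by over 0.1 to 0.12, the split became 6 higher and 12 lower in Sham HFD vs. RYGB HFD and 36 higher and 6 lower in Sham Chow vs. Sham HFD.

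Of 19 cholangiocyte genes, 7 passed the filter. *Cftr* and *Sctr*, the chloride channel and the secretin receptor that define the type, had at most 5 and 7 counts in any mouse. The summed level of the 19 overlapped between groups, from 114 to 181 CPM in RYGB HFD and from 96.0 to 218 CPM in the other mice. *Slc4a2*, an anion exchanger of bile secretion, rose by 0.27 in Sham HFD vs. RYGB HFD (SE 0.08, edgeR adjusted p = 0.0257). This call was lost with only library size for scaling, without the low-count filter, and without replicate 2 or 3 of either group, where the adjusted p was 0.0665 to 0.0775. *Pkhd1*, which encodes a cilium protein of duct cells, rose by 0.55 in Sham Chow vs. Sham HFD (SE 0.19, edgeR adjusted p = 0.0440), a call lost without the filter and in 10 of the 20 refits that left out 1 mouse, with adjusted p up to 0.103 without Sham Chow replicate 5. The median log2 fold change of the 7 was -0.22 in Sham HFD vs. RYGB HFD and 0.22 in Sham Chow vs. Sham HFD.

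Of 18 genes of the ductular reaction and of Notch and YAP signaling, 15 passed the filter. In Sham Chow vs. Sham HFD 6 were called higher and 0 lower, against 21.6% of all genes called. Called or not, 11 of the 15 had a positive log2 fold change. *Lcn2*, an iron-binding secreted protein of stressed liver, rose by 3.43 on the log2 scale (SE 0.47, edgeR adjusted p = 4.86e-05), from 1.91 ± 0.628 to 20.7 ± 8.27 CPM (SD, n = 5). The Notch receptor gene *Notch1* rose by 0.94 (SE 0.21, edgeR adjusted p = 0.00335) and *Wwtr1*, which encodes the YAP partner TAZ, by 0.64 (SE 0.10, edgeR adjusted p = 2.29e-04). The remaining 3 were *Sox4*, *Cd44* and *Tnfsf12*, the last the ligand that drives duct cell growth. Of these, *Sox4* lost its call without the filter and in 13 of the 20 refits that left out 1 mouse, and *Tnfsf12* lost it in 4 such refits. In Sham HFD vs. RYGB HFD, *Wwtr1* alone was called and fell by 0.41 (SE 0.10, edgeR adjusted p = 0.00830). *Tnfrsf12a*, the receptor of *Tnfsf12*, fell by 0.96 in RYGB Chow vs. RYGB HFD (SE 0.24, edgeR adjusted p = 0.0329), a call lost without RYGB Chow replicate 3, where the adjusted p was 0.0750, and also without RYGB Chow replicate 4 or 5 or RYGB HFD replicate 1, 2, 3 or 4, with adjusted p up to 0.0838. The median of the 15 was 0.40 in Sham Chow vs. Sham HFD and -0.12 in Sham HFD vs. RYGB HFD.

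Epithelial junction genes were nearly all expressed, 15 of 16 passing the filter. *Cdh1*, the adhesion molecule E-cadherin, had the largest difference on the list. It stood at 40.6, 43.5, 45.2, 56.2 and 57.0 CPM in RYGB HFD and at 14.6, 17.8, 7.48, 3.65 and 5.57 CPM in Sham HFD, without overlap. Sham Chow lay between at 29.1 ± 10.9 CPM and RYGB Chow at 31.7 ± 4.46 CPM. *Cdh1* fell by 1.57 on the log2 scale with HFD in sham mice (SE 0.31, edgeR adjusted p = 0.00127) and rose by 2.31 in Sham HFD vs. RYGB HFD (SE 0.31, edgeR adjusted p = 4.34e-05). Its surgery by diet term was 2.18 (SE 0.42, edgeR adjusted p = 0.00594). *Ocln* (0.48, SE 0.14, edgeR adjusted p = 0.0186), *Dsg2* (0.32, SE 0.09, edgeR adjusted p = 0.0120), *Cldn3* and *Cldn12* rose as well in Sham HFD vs. RYGB HFD. All 4 lost their calls with only library size for scaling, and *Cldn3* and *Cldn12* also without the filter and with only the 2 groups of the contrast. Of the 20 refits that left out 1 mouse, *Ocln* lost its call in 3 (Sham HFD replicate 1 or 2 and RYGB HFD replicate 4), and *Cldn3* and *Cldn12* in 7 each. The median of the 15 was 0.18 in that contrast and -0.01 in Sham Chow vs. Sham HFD. *Cldn2* rose with HFD in sham mice, by 0.51 (SE 0.12, edgeR adjusted p = 0.00526).

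**Figure D5:**
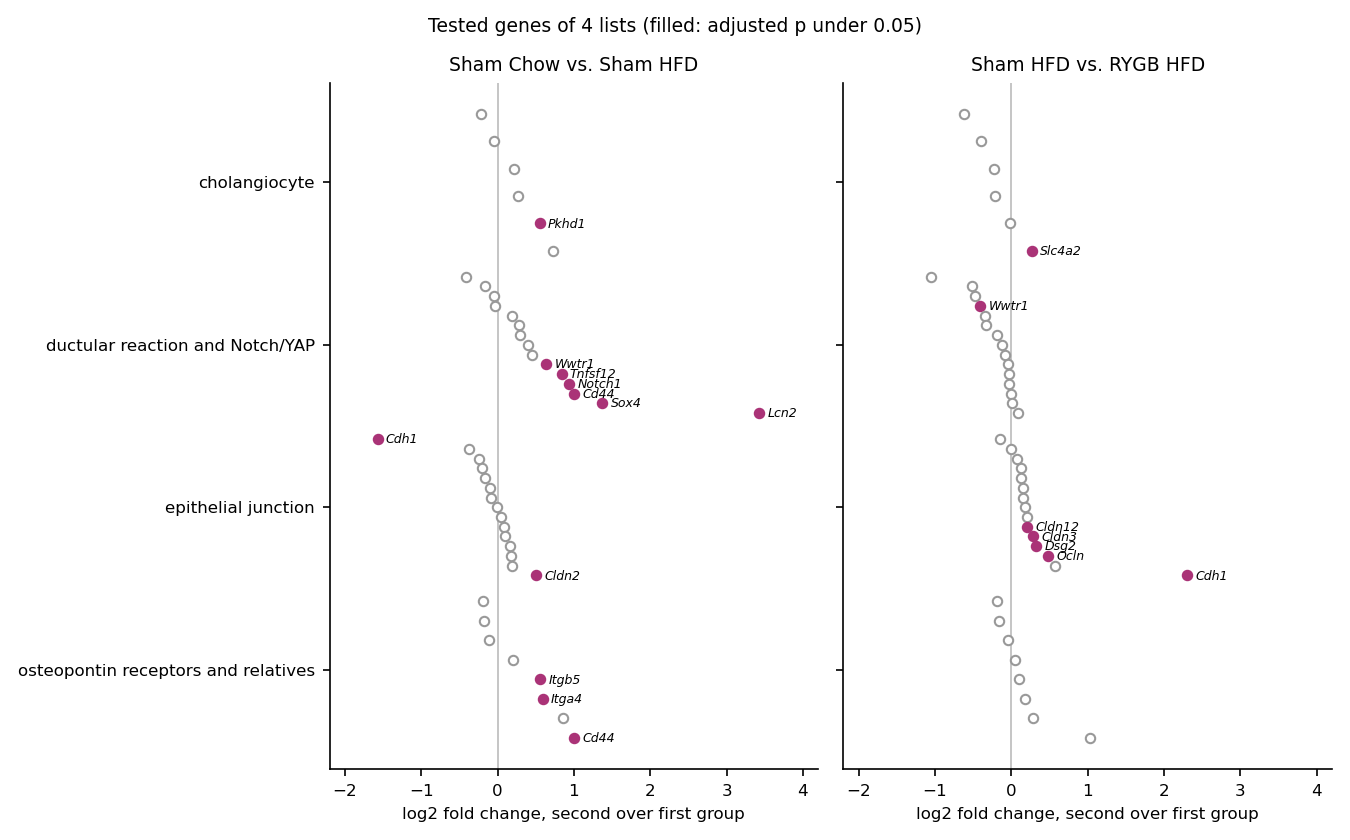
Log2 fold change of the tested genes of 4 lists in Sham Chow vs. Sham HFD and Sham HFD vs. RYGB HFD, second group over first, 1 dot per gene ordered by size within its list, with filled and named dots for edgeR adjusted p under 0.05, and 1 cholangiocyte gene not shown. *Lcn2* at 3.43 and *Cdh1* at -1.57 lie farthest out on the left panel, and *Cdh1* at 2.31 on the right.

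The receptors of osteopontin were read beside *Spp1*. Of 12 genes on this list 8 passed the filter. In Sham Chow vs. Sham HFD 3 were called higher and 0 lower, against 21.6% of all genes called. Called or not, 5 of the 8 had a positive log2 fold change. The integrin gene *Itgb5* rose by 0.56 on the log2 scale (SE 0.08, edgeR adjusted p = 5.46e-05), *Cd44* by 1.00 (SE 0.25, edgeR adjusted p = 0.00827) and *Itga4* by 0.59 (SE 0.17, edgeR adjusted p = 0.0168). In RYGB Chow vs. RYGB HFD *Itgb5* rose by 0.30 (SE 0.08, edgeR adjusted p = 0.0350), a call lost with only library size for scaling, without the filter and with only the 2 groups of the contrast. It was also lost without RYGB Chow replicate 1, 2, 4 or 5 or RYGB HFD replicate 1, 2, 3 or 4, with adjusted p up to 0.0977. In Sham HFD vs. RYGB HFD 0 genes of the list were called by edgeR, where 3 had an unadjusted p under 0.05.

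Among markers of other liver cells, some lists held called genes in the same contrasts and some held none. Of 6 tested sinusoidal endothelium genes and 2 tested T, B and plasma cell genes, 0 were called in any contrast. Of 6 Kupffer cell genes 0 were called in Sham HFD vs. RYGB HFD. Of 10 hepatocyte genes, 6 were called higher and 1 lower in Sham HFD vs. RYGB HFD, against 16.4% of all genes called. Their sum was 104941 to 123404 CPM in RYGB HFD against 75004 to 87288 CPM in Sham HFD. Most of this sum was *Alb*, with means of 83392 CPM in RYGB HFD and 59965 CPM in Sham HFD. All 8 tested stellate cell and fibroblast genes were called higher in Sham Chow vs. Sham HFD, against 21.6% of all genes called. In Sham HFD vs. RYGB HFD 5 of them were called lower and 0 higher, against 16.4%. The sum of this list was 214 to 261 CPM in Sham HFD and 80.8 to 179.8 CPM in the other mice. The fibroblast gene calls included *Des* in the first contrast and *Pdgfrb* in the second, which were lost in 15 and 12 of the 20 refits that left out 1 mouse. The part of these cells in the levels of *Tff3*, *Krt23* and the *Krt8* to *Krt18* ratio was not tested.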

How the data were processed

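Liver RNA of 20 mice was sequenced from poly(A)-selected libraries made with dUTP, which keeps the strand. The authors trimmed the reads (Trimmomatic 0.36), aligned them to mm10 (HISAT2 2.1.0) and deposited raw counts per Ensembl gene (featureCounts 1.5.0-p3), without normalization. The annotation release, the strand setting and the treatment of reads with several hits were not given in the sources used here. Symbols and positions came from GENCODE M21, which named 54495 of 54532 genes.

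Counts were analysed with edgeR 4.0.16 in R 4.3.3: genes that reached 2 CPM in 3 or more mice (12289), TMM factors (0.916 to 1.13), 1 model of the 4 groups, quasi-likelihood tests, two-sided, and Benjamini-Hochberg adjustment over all tested genes at 0.05. CPM values use TMM-scaled library sizes, except in the filter, which used plain library size. Surgery by diet is the diet difference of RYGB mice minus that of sham mice. Values of *Epcam*, *Krt7* and *Krt19* come from a fit of the 28411 genes with a count. Likeness is Spearman's rho on log2 of CPM + 0.5, with no test. The procedure was tested on simulated data.

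The 9 members and the gene lists were chosen with earlier results of these data known. Named besides the members are up to 3 genes per list and contrast with the smallest p among those called, markers whose sum is given, the 3 genes most like each tested member (5 for *Tff3*) and paralogs. *Cldn3*, *Cldn12*, *Sox4*, *Tnfsf12*, *Krt10*, *Des*, *Pdgfrb*, *Gpnmb* in surgery by diet and genes with 0 counts were named after their values were seen. Values of 1 cholangiocyte gene on the lists are not reported here. Depth was 14604854 to 22537498 counts per mouse. Counts are of PCR reads with no molecular identifiers, and the floor of 3 counts covers counting error only. The labels name no batch, and they number the mice 1 to 5 in each group without saying what a number means. P-values measure the spread between mice. Alternatives were DESeq2 1.42.0, library size only or RLE factors, no filter or one of 5 CPM, only the 2 groups of a contrast, a replicate block and leaving out each mouse. Promoter windows are RefSeq sequences of GRCm38.p6, and protein sequences were not used here.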

Additional observations from a re-analysis of the deposited data

Results flagged for a closer look

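Over 40 groups of 5 mice (9 genes and the *Krt8* to *Krt18* ratio in 4 groups), 4 held a mouse far from the others by Dixon's test, where chance gives about 1 in 20. They were *Krt23* in RYGB HFD replicate 5 (2.99 CPM, the others at most 1.54), *Spp1* in Sham Chow replicate 5 (13.9 CPM, the others at least 23.1), *Krt7* in RYGB HFD replicate 1 (1.52 CPM from 28 counts, the others at most 6 counts) and *Krt19* in RYGB Chow replicate 5 (0.623 CPM from 11 counts).

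The diet difference depended on surgery, by the surgery by diet term of edgeR's quasi-likelihood model, for *Tff3* (log2 difference 3.49, given as a description since the gene was chosen for its pattern) and for the following genes of the lists. The term was 2.18 for *Cdh1* and 0.44 for *Dsg2*, both of cell junctions. Among hepatocyte genes it was 0.72 for *Apoa1* and 1.03 for *Cps1*. Among macrophage genes it was 3.24 for *Fabp5*, -2.09 for *Cd63*, -3.67 for *Mmp12* and -3.56 for *Gpnmb*. The collagen genes *Col1a1*, *Col1a2* and *Col3a1* had -1.75, -1.74 and -1.34. The calls of *Dsg2* and *Apoa1* were lost with only library size for scaling (edgeR adjusted p = 0.252 and 0.0554), without the filter (0.0867 and 0.0526) and in 14 of the 20 refits that left out 1 mouse, for *Apoa1* also without RYGB Chow replicate 3 (0.0695). The *Gpnmb* call was lost with DESeq2 and in 16 of these refits, and the *Cps1* call in 10. The calls of *Cdh1*, *Fabp5*, *Cd63*, *Mmp12* and the collagen genes were kept in all refits that gave an adjusted p.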

How the results depend on the processing

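The log2 fold changes of the 6 tested members kept their status, called or not called, in 202 of 204 refits with another tool, scaling, filter or samples. Without a mouse they kept it in 599 of 600, with 0 called values reversed. In the main fit 0, 2, 2, 1 and 1 of the 6 were called, with surgery by diet last. Most kept values were thus uncalled in both fits. The members were also chosen with these data known, so these counts are no support. The exceptions gained a call: *Krt8* in Sham Chow vs. Sham HFD with only library size (3 members called), *Krt23* in the surgery by diet test with DESeq2 (2 members called against 1) and *Krt18* in RYGB Chow vs. RYGB HFD without RYGB Chow replicate 5 (2 called, log2 fold change 0.46). With only library size, 80.4% of all calls in Sham Chow vs. Sham HFD were higher in Sham HFD, against 50.3% with TMM factors, and 26.6% against 52.0% were higher in RYGB HFD in Sham HFD vs. RYGB HFD.

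Of list genes, DESeq2 called 1 in Sham Chow vs. RYGB Chow against 0. The 5 called in RYGB Chow vs. RYGB HFD became 2 with only library size, 3 without a filter and 2 with only the groups of the contrast. Without a mouse, list genes called ranged from 1 to 5 in RYGB Chow vs. RYGB HFD, with the lowest count without RYGB HFD replicate 1 or 3, from 7 to 15 against 11 in the surgery by diet test, from 19 to 28 in Sham HFD vs. RYGB HFD and from 27 to 38 in Sham Chow vs. Sham HFD. Members called ranged from 1 to 2 in RYGB Chow vs. RYGB HFD and did not vary in the other contrasts. The cause was not tested.

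Same-numbered mice of different groups had residual correlations of -0.257 to 0.165, over 0.1 in 5 of 30 pairs. Other-numbered mice had -0.268 to 0.362, over 0.1 in 21 of 120 pairs. These values gave no sign of pairing by number, but a weak pairing would not show in them. With a replicate block, members called were 0, 2, 2, 1 and 1 as without it, in the order of the contrasts with surgery by diet last, and list genes called were 0, 23, 34, 4 and 11. Among calls named in the text, the block ended those of *Pkhd1*, *Sox4*, *Trem2* and *Des* in Sham Chow vs. Sham HFD, *Pdgfrb* in Sham HFD vs. RYGB HFD and *Cps1* and *Gpnmb* in the surgery by diet test. Counts under 30 per mouse limited *Krt7* and *Krt19*.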
